A study of Mus musculus with 5 samples.

Results

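The genes described here encode death ligands of the tumor necrosis factor (TNF) family, the receptor Fas and the proteins that carry its signal. They are 7 genes chosen by symbol, and each was found among the 23337 genes counted and was among the 11299 tested. They were measured in CD8+ T cells that had infiltrated tumors of mice treated with a PD-L1-blocking antibody or a control IgG. PD-L1 binds PD-1, an inhibitory receptor of T cells. The strain label is C57BL/6J CD45.1 OT-I for all 5 libraries. OT-I T cells carry a transgenic receptor for an ovalbumin peptide, and donors were 6 to 12 weeks old. CD8+ cells of these donors were stimulated with anti-CD3 and anti-CD28, kept in interleukin-2 until day 5 or 6, and 2000000 to 4500000 were injected into mice bearing B16-OVA tumors, which derive from melanoma cells that express ovalbumin. The 3 Control IgG libraries came from recipients of an anti-KLH rat IgG2b and the 2 anti-PD-L1 libraries from recipients of clone 10F.9G2, each at 200 µg per mouse on days 3 and 6. Recipients were killed on day 8 or once a tumor measured 1.2 cm across. The age of the recipients is not in the labels. The cells of both groups had thus been activated in culture and had entered a tumor. Several mice of a group were pooled before the sort of live CD8+ CD45.1+ cells, so a library is a pool and not an animal, and the spread between libraries may be partly technical.

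Cytotoxic T cells kill in part through ligands on their surface. Fas ligand (Fasl) engages Fas, whose cytoplasmic death domain recruits the adaptor FADD, and FADD in turn gathers the initiator caspase, caspase 8. The protein c-FLIP, product of Cflar, resembles caspase 8 but lacks its protease activity and limits its activation. TRAIL, product of Tnfsf10, uses the same adaptor and caspase through its death receptor Tnfrsf10b. LIGHT, product of Tnfsf14, binds HVEM and the lymphotoxin beta receptor, neither of which has a death domain, and is known as a costimulator of T cells. In T cells themselves Fas and its ligand take part in activation-induced death, and caspase 8 holds back necroptosis, a lytic form of death that needs RIPK3 and MLKL.

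Counts assigned to genes numbered 9985943 to 12830485 per library. The libraries numbered 1 in both groups stood apart from the other 3, with 11696 and 11977 genes detected against 13564 to 13801. The first principal component (52.7% of the variance) separated them from those 3. They did not resemble each other, however. Their correlation of 0.907 was the lowest of any pair of libraries. On the second component Control IgG replicate 1 was at -44.8 and anti-PD-L1 replicate 1 at 75.7. The labels name no batch. Each of the 7 genes is therefore also given without these libraries. Other genes of the pathway are given with all libraries only. Markers of the sorted cells were abundant. The 8 of 9 listed T cell genes summed to 8390 to 8875 CPM, counts scaled to a common library total, in controls and to 9969 and 8892 CPM in anti-PD-L1 replicates 1 and 2, led by Cd8a and Ptprc.

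Markers of other cells were scaled to library totals. Natural killer markers (10 of 10 listed) summed to 131 to 155 CPM in controls, 289 CPM in anti-PD-L1 replicate 1 and 148 CPM in replicate 2. Klre1 and Fcer1g led this sum, while Klra4 and Klra8 were at 0 in every library and Ncr1 did not exceed 0.234 CPM. In anti-PD-L1 replicate 1 Klre1 was at 202 CPM and Fcer1g at 63.5 CPM, Ncr1 and Klra9 were at 0, and Eomes was at 6.04 CPM, against 18.8 to 29.6 CPM in controls. Macrophage markers (8 of 9) summed to 164, 117 and 71.5 CPM in Control IgG replicates 1, 2 and 3 and to 72.9 and 109 CPM after anti-PD-L1, led by Lyz2 and C1qb. Melanoma markers (8 of 8, led by Pmel and Dct) summed to 4.03, 313 and 98.5 CPM in the controls and to 41.5 and 109 CPM after anti-PD-L1. Markers of CD4+ and regulatory T cells (5 of 5) summed to 182 to 252 CPM in controls and to 150 and 381 CPM after anti-PD-L1, almost all from Ctla4 and Ikzf2, and Cd4 itself did not exceed 1.30 CPM. Dendritic cell markers (7 of 7, led by Itgax and Xcr1) summed to 23.1 to 35.7 CPM in controls and to 33.2 and 53.7 CPM after anti-PD-L1. Fibroblast and endothelial markers (8 of 8) summed to 28.6 to 58.2 CPM over all libraries, nearly all from Pecam1, with Col1a1 next. Neutrophil markers (5 of 6, led by Cxcr2 and Csf3r) and B cell markers (5 of 6, led by Cd79b and Cd79a) summed to at most 11.8 and 6.49 CPM.

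The 7 genes lie on 5 chromosomes of the mouse assembly GRCm38, and all are protein-coding. Cflar (chromosome 1, 58711508 to 58758884, plus strand) and Casp8 (chromosome 1, 58795374 to 58847503, plus strand) are neighbors with 36.5 kb between them. Fasl is far along the same chromosome (161780689 to 161788495, minus strand). Tnfsf10 is on chromosome 3 (27317028 to 27342427, plus strand), Fadd on chromosome 7 (144577318 to 144582463, minus strand), Tnfsf14 on chromosome 17 (57189492 to 57194177, minus strand) and Fas on chromosome 19 (34290666 to 34327772, plus strand). The values are counts over a whole gene, so the long and short forms of c-FLIP, and membrane and soluble forms of Fas, were not told apart. An antisense gene, Faddos, overlaps 6.12% of the exon bases of Fadd, and this unstranded chemistry cannot separate the reads of that stretch. Of all windows of 50 bases in the annotated transcripts, 0% of those of Fasl, Tnfsf14 and Fas also occurred in a transcript of another gene, against 0.33% for Tnfsf10, 4.37% for Casp8, 6.95% for Fadd and 7.36% for Cflar.

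Levels of different genes were compared per kilobase of exon. In controls Tnfsf14 was highest at 77.8 CPM per kb (62.5 to 85.9), above Fasl at 44.9 (38.1 to 57.8) without overlap, and Fasl overlapped Casp8 at 39.4 (31.2 to 43.8). After anti-PD-L1 these 3 overlapped, with means of 54.5, 53.7 and 51.8, and in anti-PD-L1 replicate 1 Tnfsf14 at 27.6 was below Fasl at 47.4 and Casp8 at 66.7. Over all 5 libraries the means were 68.5, 48.5 and 44.3. Fas came next at 15.7 CPM per kb (9.10 to 30.2), below the lowest Casp8 value in every library. It overlapped Tnfsf10 at 10.7 (7.64 to 16.1). The ranges of Tnfsf10 and Cflar, at 6.80 (5.95 to 7.79), overlapped slightly, as did those of Cflar and Fadd, at 4.61 (3.64 to 6.28). Tnfsf14, Fasl and Casp8 stood above 91.8%, 89.2% and 88.3% of the 10229 tested genes that had a length, and Fadd above 47.4%. The order depends on the length used. For Cflar, the annotated exons add up to 12669 bases while the protein-coding transcripts have a median of 2586.5 bases. By median transcript length the control mean of Cflar was 33.4 CPM per kb, above Fas at 24.7 and Tnfsf10 at 15.8 and below Casp8 at 60.5, Fasl at 74.3 and Tnfsf14 at 77.8. Over all 5 libraries Fasl by that length was at 80.1, above Tnfsf14 at 68.5.

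The main comparison asked which of these genes differed after PD-L1 blockade. None of the 7 passed, and their fold changes pointed both ways. On the log2 scale Tnfsf10 (0.57), Casp8 (0.40) and Fasl (0.26) had fold changes above 0, Tnfsf14 (-0.51), Fas (-0.26) and Fadd (-0.20) below 0, and Cflar stood at -0.01. Tnfsf10 was the 1 of the 7 for which both treated libraries exceeded every control, and for 0 of the 7 both were below every control. Over all tested genes these shares were 7.73% above and 9.57% below. In edgeR's quasi-likelihood test 0 of the 7 passed an adjusted p of 0.05, and the same test called 0% of the 11299 genes. At an unadjusted p under 0.05 there were likewise 0 of the 7, against 2.13% of all tested genes. DESeq2 called 0 of the 7 and 0.0265% of 15088 genes. The median fold change of the 7 was -0.01, against -0.02 over all tested genes. The design had little power for modest changes. In counts simulated at these depths, 11.9% of genes changed 2-fold and 94% of genes changed 4-fold were called. Those genes were drawn from the genes above the median level, 67 at each fold, with 66 more changed 8-fold in the same simulation. With fewer true changes the adjusted cut is stricter, so these shares may overstate the power here. A missed threshold therefore does not show equal levels, and the 95% interval of each fold change is given.

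**Figure D1:**
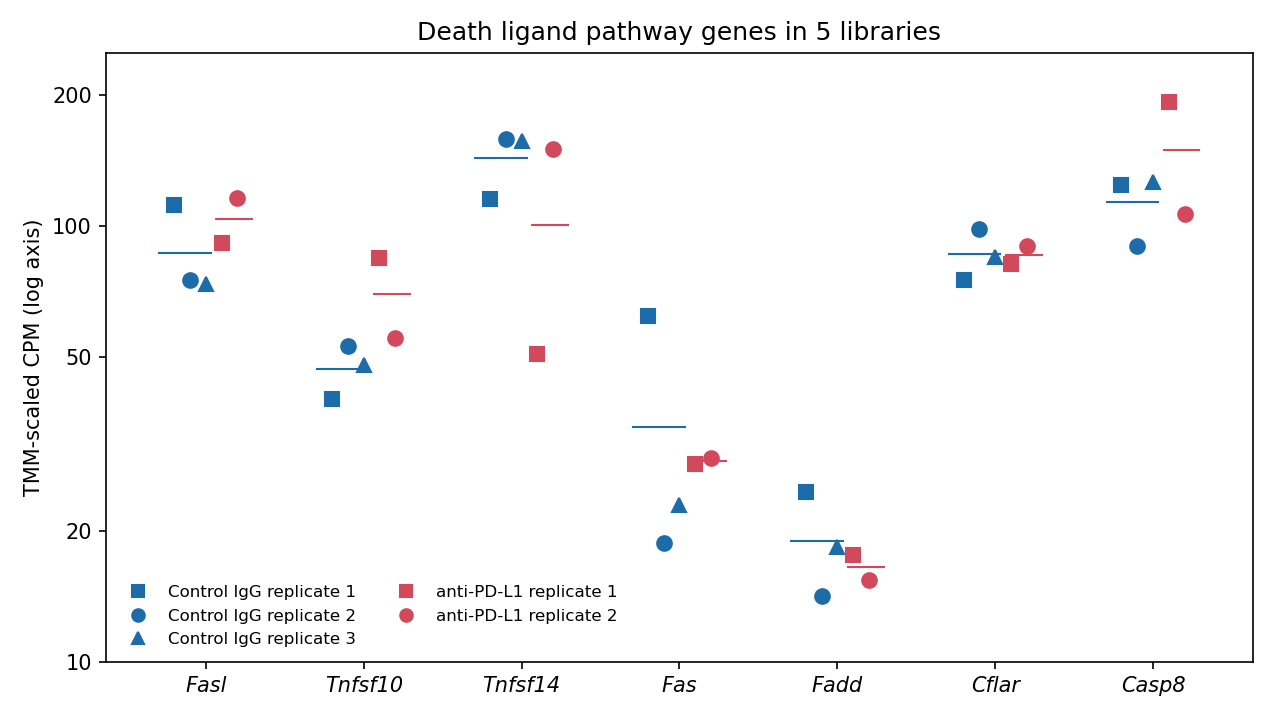
CPM (log axis), scaled between libraries by the TMM method, of the 7 genes in each of the 5 libraries, with squares for replicate 1, circles for replicate 2 and a triangle for replicate 3. Horizontal lines are group means. The groups overlap for every gene except Tnfsf10, and single libraries stand out for Fas (62.3 CPM in Control IgG replicate 1) and Tnfsf14 (51.0 CPM in anti-PD-L1 replicate 1).

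Fasl, the main death ligand of activated cytotoxic T cells, was at 112, 75.4 and 73.8 CPM in Control IgG replicates 1, 2 and 3 and at 91.8 and 116 CPM in anti-PD-L1 replicates 1 and 2. The groups overlapped, because the control library numbered 1 was nearly as high as the highest treated library. The means were 87.0 ± 21.6 CPM (SD, n = 3) and 104 ± 17.4 CPM (SD, n = 2). The log2 fold change was 0.26 ± 0.28 (SE), with a 95% interval from -0.39 to 0.90 and an adjusted p of 0.9999 in edgeR. Both anti-PD-L1 libraries were above Control IgG replicates 2 and 3. Without Control IgG replicate 1 the fold change was 0.48 ± 0.24, and without both libraries numbered 1 it was 0.63 ± 0.25 from a single treated library, with an adjusted p of 0.9998 in edgeR. Without anti-PD-L1 replicate 1 it was 0.42 and without replicate 2 it was 0.11.

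Tnfsf10, which encodes TRAIL, was the gene among the 7 whose groups did not overlap. It was at 40.2, 53.0 and 48.1 CPM in the controls and at 84.8 and 55.4 CPM after anti-PD-L1. The second treated library exceeded the highest control by little, and most of the difference in means came from anti-PD-L1 replicate 1. The means were 47.1 ± 6.45 CPM (SD, n = 3) and 70.1 ± 20.8 CPM (SD, n = 2). The log2 fold change was 0.57 ± 0.29 (SE), the 95% interval ran from -0.09 to 1.23, and the edgeR adjusted p was 0.9999 (unadjusted 0.0795). Leaving out Control IgG replicate 1 gave 0.47. It was 0.23 without anti-PD-L1 replicate 1, 0.88 without replicate 2 and 0.12 without both libraries numbered 1. The natural killer marker sum was also highest in anti-PD-L1 replicate 1, from Klre1 and Fcer1g and with Eomes lowest there, and its part in the Tnfsf10 value was not tested.

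Tnfsf14, which encodes LIGHT, was at 115, 159 and 157 CPM in the controls and at 51.0 and 150 CPM after anti-PD-L1. Anti-PD-L1 replicate 1 was the lowest library, while replicate 2 lay among the controls. The means were 144 ± 24.5 CPM (SD, n = 3) and 101 ± 70.3 CPM (SD, n = 2), and the log2 fold change was -0.51 ± 0.43 (SE), with a 95% interval from -1.50 to 0.48 and an edgeR adjusted p of 0.9999. It was -1.47 without anti-PD-L1 replicate 2, with an adjusted p of 0.366 in edgeR, and -0.65 without Control IgG replicate 1. Leaving out anti-PD-L1 replicate 1 gave 0.07, and leaving out both libraries numbered 1 gave -0.08. The size of the difference thus rested on anti-PD-L1 replicate 1, the library with the highest natural killer marker sum (and the lowest Eomes), whose part in the Tnfsf14 value was not tested. In that library LIGHT and TRAIL transcripts stood on opposite sides of the control mean, at -1.48 and 0.85 on the log2 scale.

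**Figure D2:**
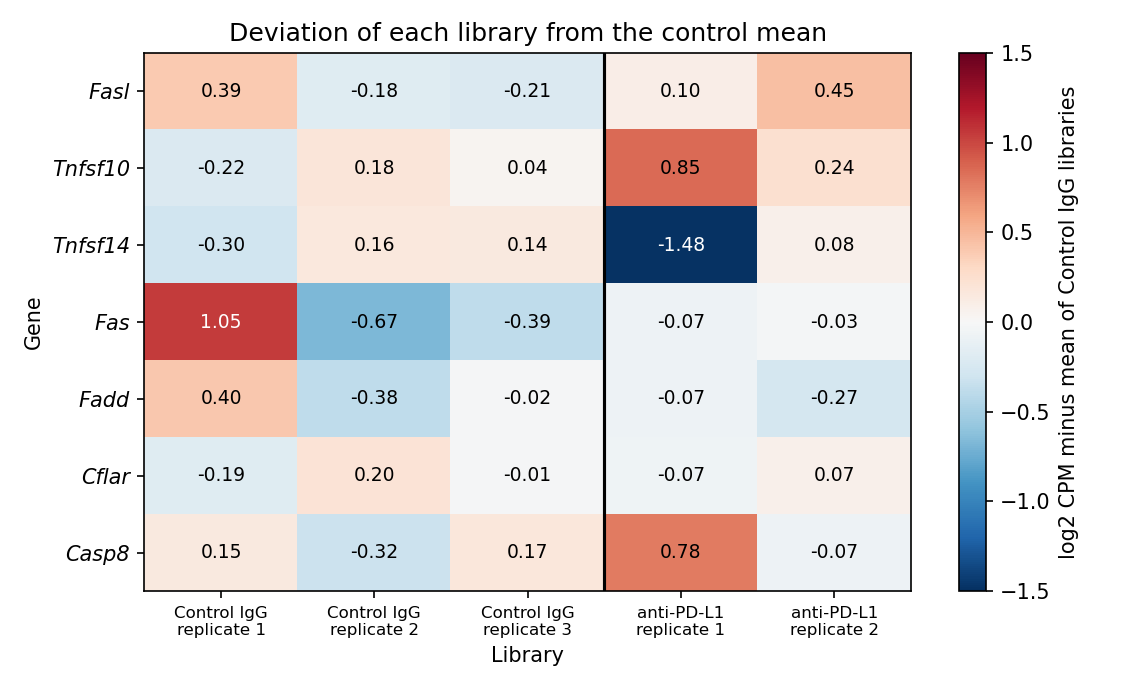
Log2 CPM of each gene in each library minus the mean of the 3 Control IgG libraries, with the value printed in each cell and a vertical line between the groups. The largest deviations are in the libraries numbered 1, at 1.05 for Fas in Control IgG replicate 1 and at -1.48 for Tnfsf14 in anti-PD-L1 replicate 1.

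Fas, the receptor of Fas ligand, was at 62.3, 18.8 and 22.9 CPM in the controls and at 28.5 and 29.4 CPM after anti-PD-L1. Control IgG replicate 1 was more than the sum of the other controls, and both treated libraries lay between it and those. The control mean of 34.7 ± 24.0 CPM (SD, n = 3) accordingly had a coefficient of variation of 69.3%, where counting alone gives 5.01%. The anti-PD-L1 mean was 28.9 ± 0.682 CPM (SD, n = 2). The log2 fold change was -0.26 ± 0.51 (SE), with a 95% interval from -1.43 to 0.91 and an edgeR adjusted p of 0.9999. Without Control IgG replicate 1 it turned to 0.47 ± 0.29, with an edgeR adjusted p of 0.9789, and without both libraries numbered 1 it was 0.48 ± 0.32. Without anti-PD-L1 replicate 1 it was -0.24. The macrophage marker sum was highest in the same control library and the melanoma sum was lowest there. Of the macrophage markers, Mrc1 was at 0 CPM in that library. Itgam was at 1.94 CPM there against 6.65 CPM in anti-PD-L1 replicate 1, and Cd14 at 2.42 CPM against 5.14 CPM in anti-PD-L1 replicate 2. The other listed macrophage markers were highest in that control library. The part of these marker sums in the Fas value was not tested.

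Fadd, the adaptor between Fas and caspase 8, had the lowest counts of the 7, with 152 in Control IgG replicate 2 (95% exact Poisson interval 128.8 to 178.2, for counting error only). It was at 24.5, 14.2 and 18.3 CPM in the controls and at 17.6 and 15.4 CPM after anti-PD-L1, so both treated libraries lay within the control range. The log2 fold change was -0.20 ± 0.36 (SE), with a 95% interval from -1.03 to 0.63 and an edgeR adjusted p of 0.9999. It was 0.02 without Control IgG replicate 1, the highest library, -0.30 without anti-PD-L1 replicate 1 and -0.09 without both.

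Cflar varied least. It was at 75.4, 98.6 and 84.9 CPM in the controls and at 81.8 and 90.1 CPM after anti-PD-L1, and both treated libraries lay within the controls. The highest library was 1.31 times the lowest, and 4.8% of the tested genes had a smaller SD of log2 CPM over the 5 libraries. That share was taken over tested genes of every level and not over genes of similar level. The means were 86.3 ± 11.7 CPM (SD, n = 3) and 85.9 ± 5.92 CPM (SD, n = 2). The log2 fold change was -0.01 ± 0.24 (SE), with a 95% interval from -0.56 to 0.55 and an edgeR adjusted p of 0.9999, and its sign changed with the scaling. Leaving out Control IgG replicate 1 gave -0.10, leaving out anti-PD-L1 replicate 1 gave 0.06, and leaving out both gave -0.04. The interval leaves room for a change of up to about 0.56 on the log2 scale in either direction.

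Casp8, which encodes the initiator caspase of this pathway, was at 125, 90.3 and 127 CPM in the controls and at 193 and 107 CPM after anti-PD-L1. Replicate 1 of the treated group was the highest library and replicate 2 lay within the controls. The means were 114 ± 20.4 CPM (SD, n = 3) and 150 ± 60.9 CPM (SD, n = 2). The log2 fold change was 0.40 ± 0.31 (SE), with a 95% interval from -0.32 to 1.11 and an edgeR adjusted p of 0.9999. It was 0.79 without anti-PD-L1 replicate 2, with an edgeR adjusted p of 0.493, and -0.09 without replicate 1. It was 0.47 without Control IgG replicate 1 and -0.04 without both libraries numbered 1. The natural killer marker sum was highest in anti-PD-L1 replicate 1 too, from Klre1 and Fcer1g and with Eomes lowest there, and its part in the Casp8 value was not tested.

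**Figure D3:**
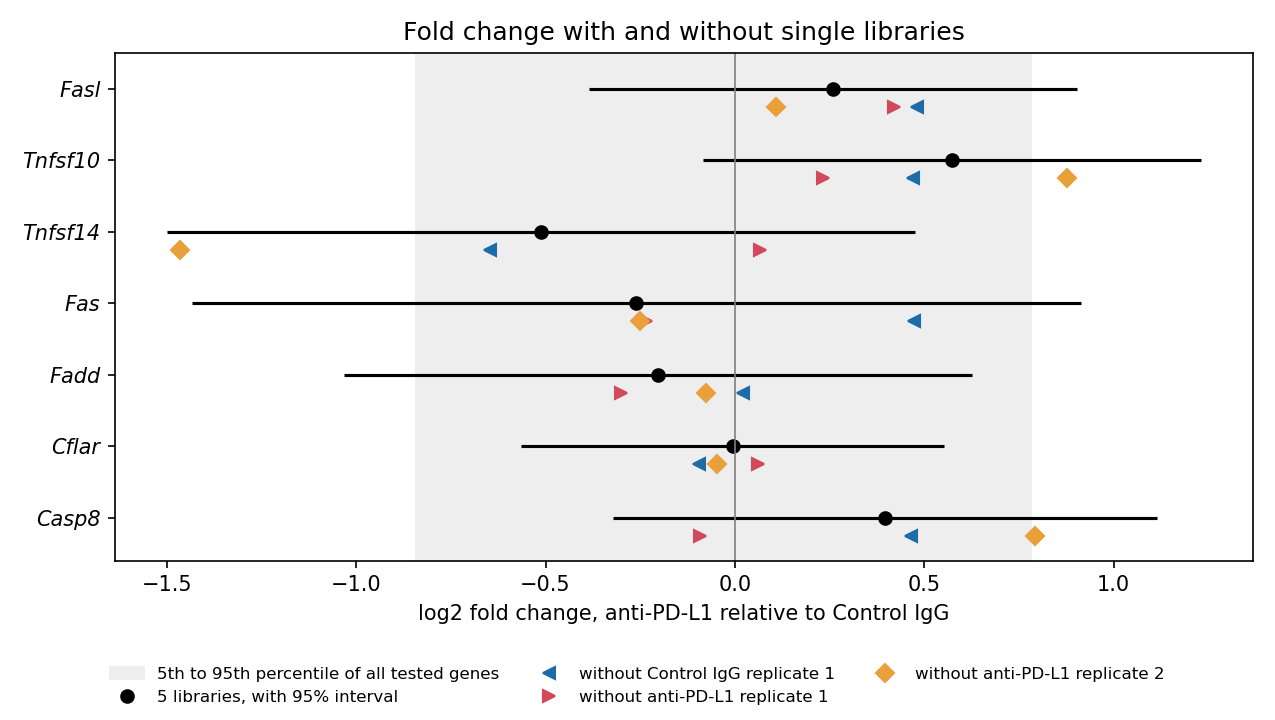
Log2 fold change of anti-PD-L1 relative to Control IgG for each gene (x axis), as black points with 95% intervals from all 5 libraries and as colored points after leaving out single libraries. The grey band spans the 5th to 95th percentile of all tested genes, from -0.84 to 0.78. Every interval includes 0. Tnfsf14, Casp8 and Cflar change sign without anti-PD-L1 replicate 1, as Fas and Fadd do without Control IgG replicate 1.

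Within a library, the ratio of inhibitor to initiator does not depend on scaling between libraries. The ratio of Cflar to Casp8 counts was 0.604, 1.09 and 0.671 in the controls and 0.424 and 0.843 after anti-PD-L1. Casp8 had the higher count in 4 of 5 libraries. The mean log2 ratio was -0.39 ± 0.46 (SD, n = 3) in controls and -0.74 ± 0.70 (SD, n = 2) after anti-PD-L1, and the difference of -0.35 gave p = 0.6 in an exact two-sided permutation test. With 10 assignments of libraries, p cannot go below 0.1. The ratio of Fasl to Fas counts was 1.80, 4.02 and 3.22 in the controls and 3.23 and 3.96 after anti-PD-L1, so the ligand exceeded its receptor in every library. Control IgG replicate 1 was the low one. The log2 ratios averaged 1.51 ± 0.60 (SD, n = 3) and 1.83 ± 0.21 (SD, n = 2), a difference of 0.32 with p = 0.8 in the same exact permutation test. Adjusted over these 2 ratios by the Benjamini-Hochberg method, both p-values were 0.8. The differences were 0.15 for Cflar to Casp8 without anti-PD-L1 replicate 1 and -0.01 for Fasl to Fas without Control IgG replicate 1.

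**Figure D4:**
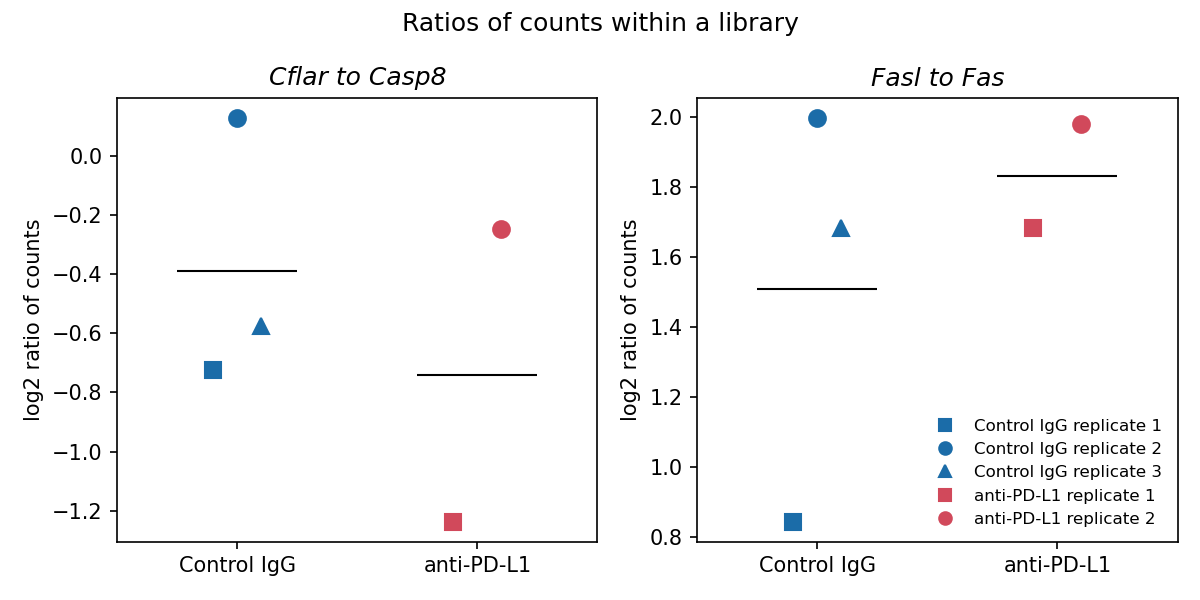
Log2 ratio of counts (y axis) of Cflar to Casp8 and of Fasl to Fas in each library, by group (x axis), with group means as lines. Anti-PD-L1 replicate 1 has the lowest Cflar to Casp8 ratio at -1.24 and Control IgG replicate 1 the lowest Fasl to Fas ratio at 0.84.

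Other genes of the pathway were described in 5 lists with 55 symbols, of which 51 were tested. None passed in edgeR in either direction, with 26 fold changes above 0 and 25 below, and a median of 0.01. At an unadjusted p under 0.05 in edgeR there was 1, Tnfrsf1b, against 2.13% of all tested genes. DESeq2 called 0, against 0.0265% of all its genes. For 1 of the 51 both treated libraries exceeded all controls, and for 2 both were below them. These were Tnfrsf1b, the type 2 TNF receptor, above, and Lta and Bid below. Over all tested genes the shares were 7.73% above and 9.57% below. Tnfrsf1b was singled out after its values were seen.

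Of the 5 other ligands, 3 were tested, with a median of -0.06. Tnf was at 64.6, 119 and 100 CPM in controls and at 51.1 and 131 CPM after anti-PD-L1, with a log2 fold change of -0.05 ± 0.43. Lta, which encodes lymphotoxin alpha, was at 61.0, 80.9 and 52.1 CPM in controls and at 13.2 and 48.1 CPM after anti-PD-L1, with a log2 fold change of -1.07 ± 0.51 and an edgeR adjusted p of 0.9999. As with Tnfsf14, Tnf and Lta were lowest in anti-PD-L1 replicate 1.

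Of the 13 other receptors, 12 were tested, with a median of -0.17. The partner receptors of TRAIL and LIGHT had far lower counts than the ligands. Tnfrsf10b was at 2.32, 6.63 and 4.14 CPM in controls and at 1.58 and 5.29 CPM after anti-PD-L1. Tnfrsf14, which encodes HVEM, was at 4.11 to 8.12 CPM in controls and at 4.73 and 5.96 CPM after anti-PD-L1. Ltbr was at 0.536 to 1.52 CPM in controls and at 0 and 0.670 CPM after anti-PD-L1, where a count of 0 allows up to 0.278 CPM. Btla, an inhibitory receptor that also binds HVEM, was at 26.7 to 33.7 CPM in controls and at 4.91 and 27.3 CPM after anti-PD-L1, with a log2 fold change of -0.87 ± 0.62. Tnfrsf1a, a TNF receptor with a death domain, had 0.43 ± 0.36. Tnfrsf1b was at 132 to 213 CPM in controls and at 271 and 254 CPM after anti-PD-L1, with 0.66 ± 0.27 and an edgeR adjusted p of 0.9999. None of these receptors passed.

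Of the 17 adaptors and regulators, 16 were tested, with a median of 0.10. Tradd, the adaptor of the TNF receptor, had a log2 fold change of 0.18 ± 0.30, and the kinase gene Ripk1 had -0.39 ± 0.38. Traf2 stood at 0.00 ± 0.24 and Birc3, a ubiquitin ligase that blocks death signaling, at -0.03 ± 0.27. Tnfaip3, which encodes the NF-kappaB inhibitor A20, was at 173, 196 and 268 CPM in controls and at 120 and 522 CPM after anti-PD-L1, so the treated libraries were the lowest and the highest of the 5. Its fold change was 0.60 ± 0.52.

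All 16 genes of the downstream caspases and the mitochondrial arm were tested, with a median of 0.05. Casp9, the initiator of the mitochondrial arm, had a log2 fold change of 1.00 ± 0.69 at 1.61 to 11.9 CPM over all libraries. Bid, which links caspase 8 to mitochondria, was at 54.6 to 60.7 CPM in controls and at 47.5 and 44.2 CPM after anti-PD-L1, with -0.35 ± 0.25. Xiap, an inhibitor of caspases, had 0.20 ± 0.25. The 4 necroptosis genes had a median of 0.13, with Ripk3 at 0.17 ± 0.28 and Mlkl at 0.08 ± 0.40.

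**Figure D5:**
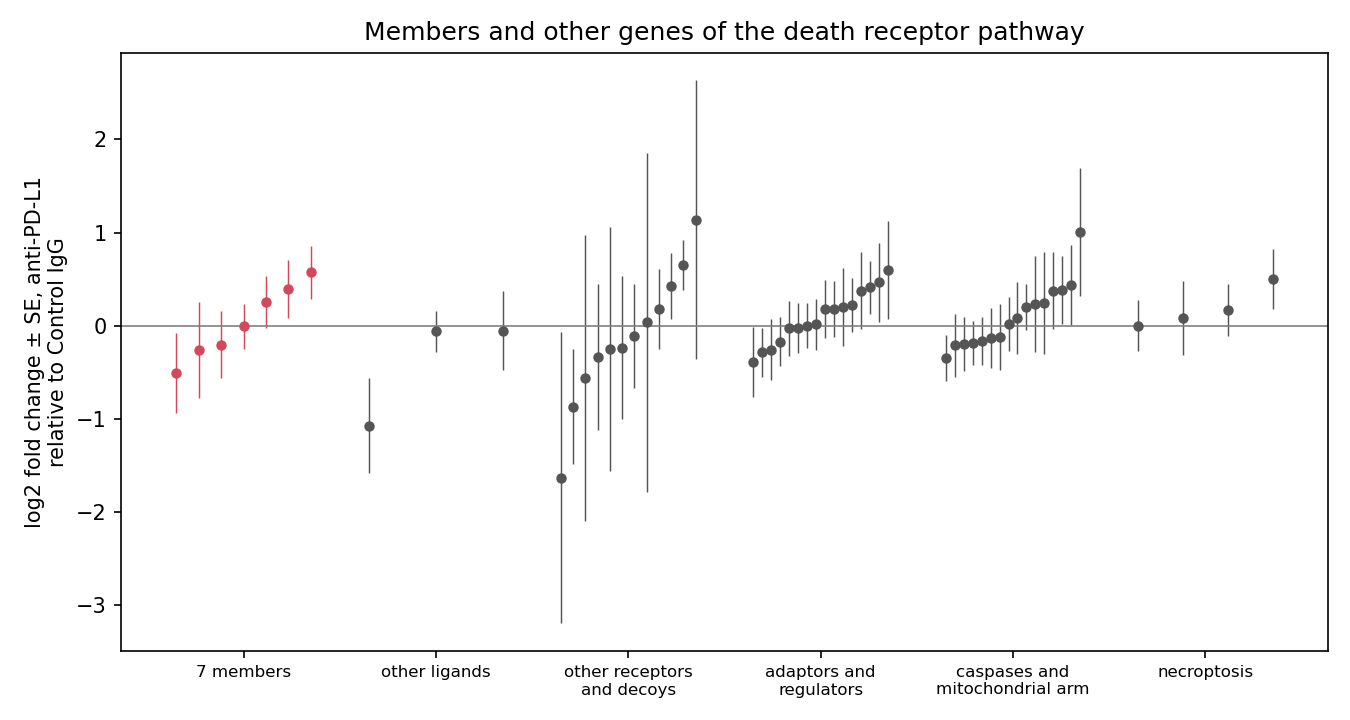
Log2 fold change ± SE (y axis) of the 7 genes and of the 51 tested genes of 5 other lists (x axis), sorted within each list. The values lie on both sides of 0, from -1.63 to 1.14, and none passed the test.

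The 7 genes did not share a pattern across libraries. As a measure of likeness, log2 CPM was centered on each gene's mean and compared by root mean square difference over the 5 libraries. The closest pair of the 7 was Fasl and Fadd at 0.30, followed by Tnfsf10 and Casp8 at 0.31, and the farthest was Tnfsf14 and Casp8 at 0.96. Among 7699 candidate genes, those closest to Fasl were Spry2 (0.04), Dusp10 (0.06) and Slc19a2 (0.07). Those closest to Tnfsf10 were Dctn4, Chchd8 and Gas2 (0.05 to 0.07), and to Tnfsf14 they were Pvt1, Ifrd2 and Mta1 (0.05 to 0.07). Fas had the least close neighbors, Alg13, St7 and Chek2, at 0.13 to 0.17. For Fadd these were Hnrnpf, Lonp2 and Prmt5 (0.04 to 0.05), for Cflar Nptn, Thoc2 and Xlr4a (0.04) and for Casp8 Prcp, Spryd3 and Prkch (0.04 to 0.05). These distances over 5 libraries are a description and carry no test.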

How the data were processed

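RNA of 5000 to 30000 sorted cells was turned into cDNA by a Smart-seq2 variant (8 preamplification cycles), tagmented and amplified over 12 cycles, per the labels' protocols, without strand or molecule tags. The authors deposited raw read counts per gene symbol. TopHat, HTSeq and mm10 are named in the submitters' processing notes. Their versions, the annotation and the settings were not given in the sources used here. The 5 counter lines were left out. Reads without a feature were 7.46% to 15.2% of a library and ambiguous reads 1.38% to 1.51%.

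The test was that of edgeR 4.0.16 under R 4.3.3 (quasi-likelihood F-test, two-sided, TMM scaling, default filterByExpr with a minimum count of 10 and total of 15) and Benjamini-Hochberg adjustment over 11299 genes at 0.05. Intervals are fold change ± the 95% t quantile times SE. CPM values of named genes are TMM-scaled. Log2 CPM values and ratios used a prior count of 2. No pair of libraries were copies (chi-square per degree of freedom at least 19.2). Alternatives used DESeq2 1.42.0, limma-voom 3.58.1, other scalings, no filter, a replicate block and fewer libraries. The edgeR step was tested on simulated data for 11299 genes. Coordinates, lengths and the 50-base windows were taken from GENCODE vM21, whose assembly GRCm38 is mm10.

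The members and lists were chosen with earlier results of these data known. Named are the 7 members, 19 pathway genes picked by role (the values of 2 are not reported here), any pathway gene past the threshold, for each member the 3 genes of closest pattern (mean log2 CPM at least 3, predicted models left out), and the 2 highest markers of a list. Tnfrsf1b, Ncr1, Klra4, Klra8, Klra9, Eomes, Mrc1, Itgam, Cd14 and Cd4 fall outside this rule and were chosen after their values were seen. Otulin was not matched in the files.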

Additional observations from a re-analysis of the deposited data

How the results depend on the processing

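Of the 7 genes, 0 passed an adjusted p of 0.05 under any of the 12 alternatives, where edgeR without a filter called 5 other genes higher, DESeq2 4, edgeR without both libraries numbered 1 called 1, and the other 9 called 0 in either direction. Tnfsf10 and Fasl stayed above 0 in all 12, at 0.12 to 0.88 and 0.11 to 0.63. For Tnfsf10 both treated libraries exceeded every control, so leaving libraries out could hardly reverse its sign. With 1 library left out, the fold change ran from -1.47 to 0.065 for Tnfsf14, from -0.55 to 0.47 for Fas, from -0.37 to 0.022 for Fadd, from -0.10 to 0.10 for Cflar and from -0.093 to 0.79 for Casp8. The difference in log2 ratio ran from -0.85 to 0.15 for Cflar to Casp8 and from -0.008 to 0.57 for Fasl to Fas. Without both libraries numbered 1, Fas was at 0.48 and Casp8 at -0.037. Cflar was at 0.009 with DESeq2-type size factors in edgeR, 0.008 in DESeq2 and 0.003 in limma-voom. The cause of these changes was not tested. Where 1 treated library remains, it is assumed to vary like the controls.

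Replicate numbers are shared by the groups, but the labels do not say that they mark a shared day or batch, and only 2 pairs exist. With the replicate block, edgeR called 0 genes at a smallest adjusted p of 0.819, with fold changes of 0.17 for Fasl, 0.57 for Tnfsf10 and -0.62 for Tnfsf14. Deviations of same-numbered libraries from their group means correlated across genes at 0.33 and 0.37. The 2 treated libraries deviate from their mean by equal and opposite amounts, so these correlations are not separate checks of pairing. Counting alone gives coefficients of variation of 2.44% to 6.72% for the 7 genes, while the spread between controls was 13.6% to 69.3%.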
